A study of Homo sapiens with 16 samples.

Results

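Keratins and vimentin-type intermediate filament proteins form the flexible filament network of the cytoplasm. The set described here holds 9 genes taken by name from the deposited table (KRT81, KRT80, KRT8, KRT18, KRT7, KRT19, KRT17, VIM and NES), out of 17552 genes with values. KRT81 was chosen by its measured FPKM in libraries with and without erastin, for being higher with erastin, so its values, and those of its near copy KRT86, are given as a description with no test. A mean of at least 1 FPKM (fragments per kilobase of transcript, scaled to the library's total) over the 16 libraries was reached by 6 of the 9 genes. Of these, KRT80, KRT8, KRT18, KRT7 and VIM were tested, and KRT19, KRT17 and NES fell below the limit.

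Keratins are obligate partners: an acidic type I chain (KRT18, KRT19, KRT17) pairs with a basic type II chain (KRT8, KRT7, KRT80, KRT81). KRT8 and KRT18 are the first keratins of simple epithelium, KRT7 and KRT19 belong to ductal and glandular epithelium, and KRT17 is induced in stressed skin. KRT80 is a type II chain of many epithelia, and KRT81 is a hair keratin of the hair cortex. Vimentin (VIM) is the type III filament protein of mesenchymal cells, which assembles without a keratin partner, and nestin (NES) is a large filament protein of progenitor cells that assembles with vimentin.

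The cells were HT-1080, a single established human fibrosarcoma line, so every level below belongs to 1 line of mesenchymal origin. RNA was measured in 8 groups of 2 libraries: the control siRNA (siNS), depletion of DCAF8 by siRNA (siDCAF8), overexpression of WDR76 (oeWDR76) and siRNAs to DCAF8 and LSH together (siDCAF8+siLSH), in every case untreated or with erastin at 10 µM for 24 h. Erastin blocks cystine import through system xc- and brings on ferroptosis. The oeWDR76 libraries have siNS as their only control here, with no empty vector, and how many siRNAs were used per target is not stated in the labels. The labels do not state whether the 2 libraries of each group were separate cultures, and p-values therefore measure only the spread between these libraries.

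DCAF8 and WDR76 RNA followed the labels. DCAF8 stood at 10.3 to 12.2 FPKM in siDCAF8 and 14.3 to 17.4 in siDCAF8+siLSH, against 36.7 to 40.4 in siNS, and WDR76 at 242 to 324 in oeWDR76, against 2.89 to 7.69 elsewhere. HELLS, which encodes LSH, was not below control in untreated siDCAF8+siLSH, at 4.05 and 4.07 FPKM against 4.05 and 3.98 in untreated siNS, but was below untreated siDCAF8, at 6.83 and 7.45. With erastin it read 2.12 and 2.36 FPKM in siDCAF8+siLSH, 5.85 and 5.89 in siDCAF8 and 3.6 and 3.37 in siNS. HELLS was highest in oeWDR76, at 10.48 and 11.24 FPKM without erastin and 10.76 and 10.96 with it. DCAF8 lay at 30.89 to 32.84 FPKM in the oeWDR76 libraries, below siNS. All 10 mesenchymal markers reached 1 FPKM in each library, with sums of 2120 to 4410 FPKM, while the 8 measured epithelial markers summed to 1.52 to 6.61 FPKM. Among these, EPCAM reached at most 0.2 FPKM and CDH1 (E-cadherin) at most 0.51, while CLDN4 was the highest, at 0.8 to 5.58. The slope of levels (relative to each gene's mean) on GC content was 0.19 to 0.23 log2 per 10% GC in the oeWDR76 libraries and -0.16 to 0.03 in the others.

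KRT81 shares sequence with other hair keratins, which decides how far its FPKM can be trusted as its own. KRT81 (gene 3887, chr12:52285913-52291515, minus strand, GRCh38) lies inside the span of KRT86 (gene 3892, chr12:52274645-52309163, plus strand), and their annotated exons share 0 bases. The coding sequences are 90.1% identical, and 605 bases in a row (coding bases 61 to 665) are the same in both. A stretch from the middle of that run, coding bases 318 to 407, is printed because a read from it cannot be assigned to KRT81 or KRT86 by sequence; capitals mark the bases at which KRT83, another hair keratin, differs from KRT81.
KRT81: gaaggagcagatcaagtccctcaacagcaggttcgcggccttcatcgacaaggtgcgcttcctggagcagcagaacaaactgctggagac
KRT86: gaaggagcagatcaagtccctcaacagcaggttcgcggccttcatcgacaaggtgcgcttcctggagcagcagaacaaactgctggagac
KRT83: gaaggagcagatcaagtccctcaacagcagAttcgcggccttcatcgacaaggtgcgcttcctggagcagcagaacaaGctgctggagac
Of the stretches of the same length aligned without a gap, the one at coding bases 1237 to 1326 differs most between KRT81 and KRT86. It is printed because reads from there do separate them, with the 19 bases at which KRT86 differs from KRT81 in capitals.
KRT81: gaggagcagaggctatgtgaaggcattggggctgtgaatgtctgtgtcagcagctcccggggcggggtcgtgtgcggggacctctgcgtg
KRT86: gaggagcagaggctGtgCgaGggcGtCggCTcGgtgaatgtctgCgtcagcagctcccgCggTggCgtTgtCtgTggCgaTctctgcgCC
Over whole transcripts, 38.4% of the 50-base windows of KRT81 occur unchanged in KRT86, 6.22% in KRT83 and 6.06% in KRT85. KRT81 shares no such window with KRT80, KRT7, KRT8 or KRT18, so its sharing is confined, among the genes compared, to the hair keratins. Of the windows of KRT80, 0.42% occur unchanged in KRT8.

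KRT81 was higher with erastin in each of the 4 genotypes. In siNS it stood at 41.6 and 44.8 FPKM without erastin and at 112 and 112 with it, a 2.57-fold difference on the scale of FPKM + 1. The siDCAF8 libraries read 46.6 and 43.7 FPKM without erastin and 154 and 133 with it, a 3.13-fold difference. Every treated library was above every untreated library of its genotype. In bulk RNA, here and below, a change in the number of cells of a kind and a change in RNA per cell cannot be told apart.

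In oeWDR76 the untreated level was already higher, at 75.8 and 76.5 FPKM, and the treated level was 118 and 141, a 1.68-fold difference. The siDCAF8+siLSH libraries read 48.6 and 52.8 FPKM without erastin and 110.3 and 126 with it, a 2.30-fold difference. The treated groups overlapped in a chain: ordered by mean, siNS/Erastin, siDCAF8+siLSH/Erastin, oeWDR76/Erastin and siDCAF8/Erastin each overlapped the next, while among untreated groups oeWDR76 stood apart above the other 3. The oeWDR76 difference from siNS without erastin was 0.81 log2, and 0.43 after a correction of each library for GC content and transcript length.

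**Figure D1:**
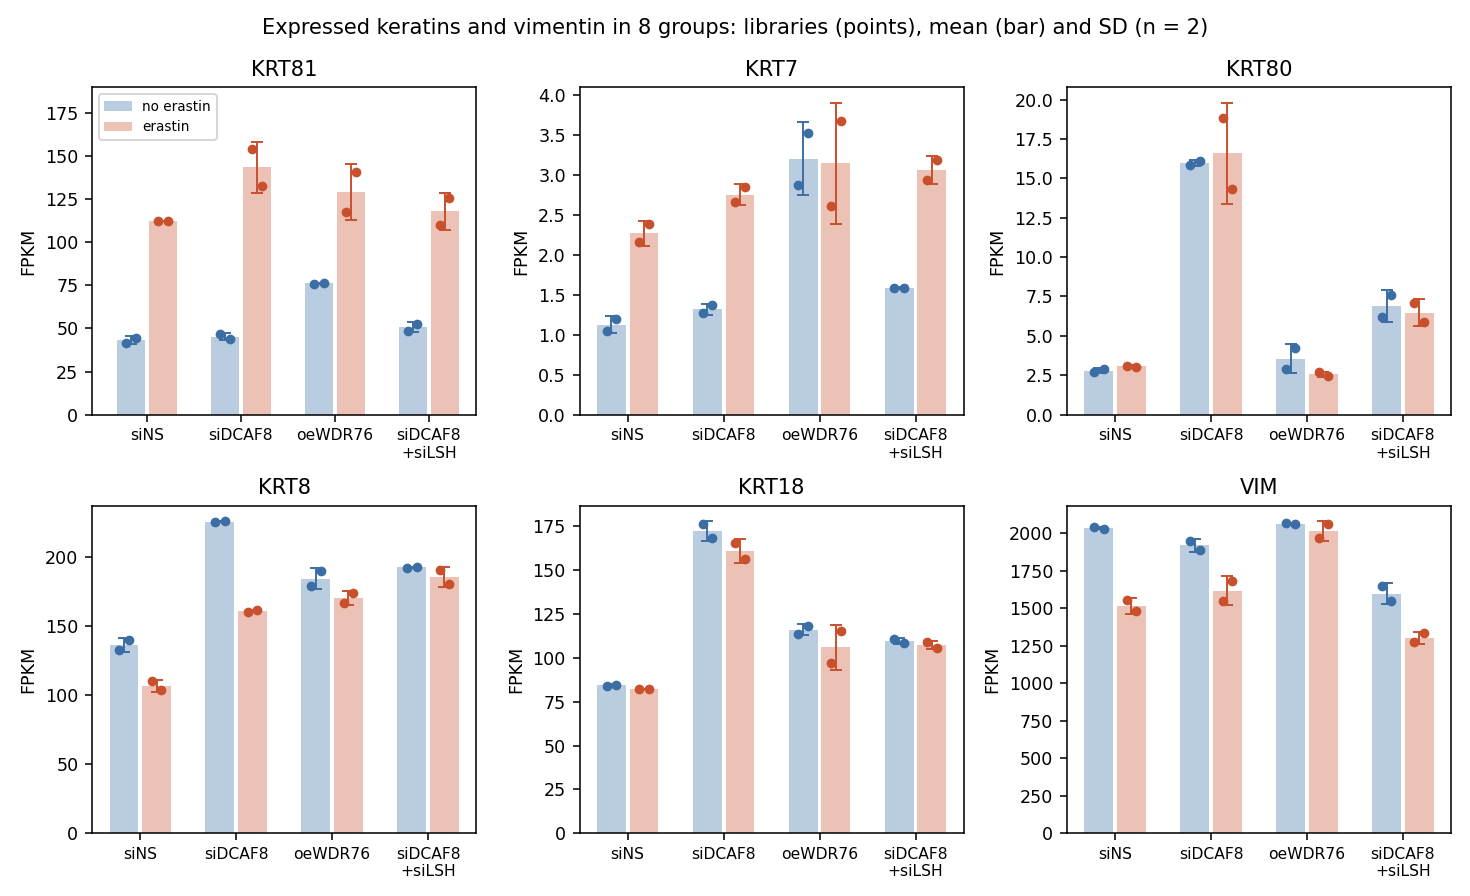
FPKM of the 6 expressed genes (y axes, separate scales) in the 4 genotypes (x axes), without erastin (blue) and with erastin (red); points are libraries, bars group means and whiskers the SD of n = 2. KRT81 is higher with erastin in each genotype, and KRT80 is high in siDCAF8 with and without erastin. VIM is lower with erastin in each genotype, by least in oeWDR76, where the means are 2064 and 2014 FPKM.

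KRT86 ran parallel to KRT81 at a much lower level. It read 2.19 and 3.02 FPKM in siNS and 6.66 and 6.62 in siNS/Erastin, and across all 16 libraries lay between 2.19 and 9.07. The ratio of KRT81 to KRT86 stayed between 14.2 and 24.1, with its highest values in oeWDR76. Given the shared sequence, how much of the KRT86 value is KRT81 reads cannot be told from FPKM. KRT83 was listed at 0 in 8 libraries and reached 0.65 FPKM at most, and KRT85 lay at 0.14 to 0.7.

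**Figure D2:**
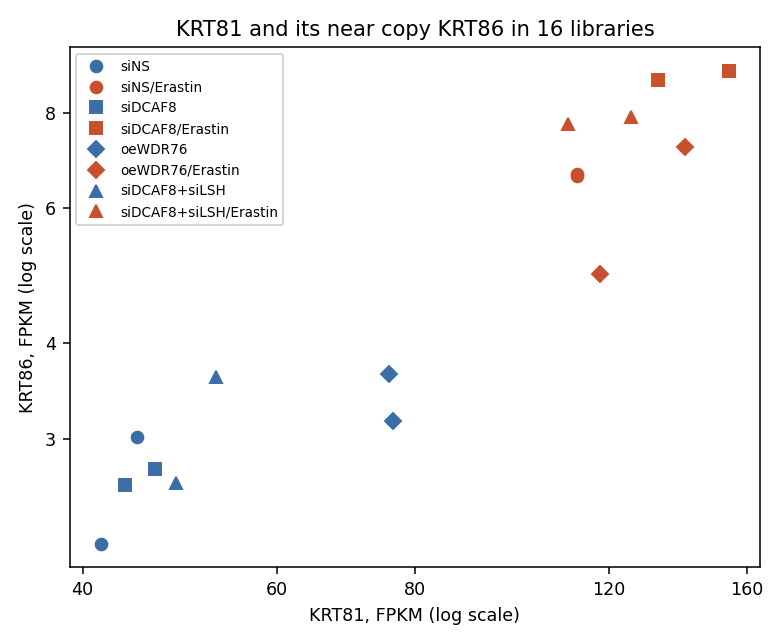
KRT81 (x axis) against KRT86 (y axis), FPKM, both log scales, 1 point per library; shape gives the genotype and colour the treatment (blue without, red with erastin). The 8 treated libraries lie to the upper right, above 110 FPKM of KRT81 and 4.9 of KRT86, and the untreated oeWDR76 libraries lie between them and the other untreated libraries on the KRT81 axis, but not on the KRT86 axis, where siDCAF8+siLSH replicate 2 (3.61 FPKM) is above oeWDR76 replicate 2 (3.17).

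Other markers of the hair cortex were mostly low. Of the type I hair keratins, the partner class of KRT81, KRT31 reached at most 0.33 FPKM, KRT33B 0.22 and KRT35 0.07. KRT34 lay at 0.27 to 1.32 FPKM. The transcription factors LEF1 and HOXC13, which act in hair keratin expression, lay at 5.69 to 10.3 and 1.12 to 1.93 FPKM. The 10 listed hair cortex markers, which include KRT86, summed to 13.2 to 13.4 FPKM in siNS and 19.8 to 20.8 in siNS/Erastin. Within these sums KRT86 had means of 2.605 and 6.64 FPKM and LEF1 of 7.205 and 9.84. LEF1 was called higher with erastin by limma only in siNS, and HOXC13 was called with erastin in no genotype.

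KRT8 (gene 3856, chr12:52897187-52949866) was the most abundant keratin in most libraries and was higher in the 3 altered genotypes than in siNS. It read 133 and 140.2 FPKM in siNS, 226 and 226 in siDCAF8, 179 and 189.9 in oeWDR76 and 192 and 193 in siDCAF8+siLSH without erastin. Each of the 3 altered genotypes was above siNS with no overlap. Against siNS the differences were 0.72 log2 in siDCAF8 (1.65-fold, SE 0.05, limma with Benjamini-Hochberg adjusted p = 5.89e-09), 0.43 in oeWDR76 (adjusted p = 9.34e-07) and 0.49 in siDCAF8+siLSH (adjusted p = 3.02e-07). The oeWDR76 difference was 0.17 after quantile normalization (adjusted p = 0.00453) and 0.10 after the correction for GC content (adjusted p = 0.0251). The 10 mesenchymal markers moved in the same comparisons: 2 rose and 7 fell in siDCAF8 (median -0.44 log2), 2 and 8 in oeWDR76 (median -1.06) and 2 and 6 in siDCAF8+siLSH (median -0.72), where 61.0, 73.6 and 66.8% of all genes were called. Their summed level was 3890 to 4030 FPKM in siNS, 2550 to 2750 in siDCAF8, 2820 to 2880 in oeWDR76 and 3160 to 3550 in siDCAF8+siLSH. The epithelial markers summed to 4.13 to 4.45, 4.86 to 5.76, 6.17 to 6.61 and 1.52 to 1.91 FPKM in the same groups. Only CLDN4 among them was tested against siNS, at 0.28 log2 in siDCAF8 (not called), 0.40 in oeWDR76 and -1.215 in siDCAF8+siLSH (both called). The part of either list in the keratin differences was not tested.

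With erastin, KRT8 was lower in siNS, at 110.1 and 104 FPKM, and in siDCAF8, at 161 and 162. It fell by 0.35 log2 in siNS (SE 0.05, adjusted p = 6.73e-05) and by 0.49 in siDCAF8 (adjusted p = 3.38e-06). In oeWDR76/Erastin it read 167 and 174 FPKM, a difference of -0.11 (adjusted p = 0.348), and in siDCAF8+siLSH/Erastin 191 and 181, a difference of -0.05 (adjusted p = 0.494). These last differences did not pass the test, with 95% intervals of -0.22 to -0.004 and -0.16 to 0.06 log2. The siDCAF8+siLSH difference was called after the correction for GC content, at -0.13 (adjusted p = 0.0218).

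KRT18 (gene 3875, chr12:52948871-52952901), the type I partner of KRT8 and its neighbour on the chromosome, followed the genotypes but was not called with erastin. It read 84.2 and 84.8 FPKM in siNS and 176 and 168 in siDCAF8, a 2.03-fold rise (1.02 log2, SE 0.06, adjusted p = 1.7e-09). In oeWDR76 it read 114 and 118 and in siDCAF8+siLSH 111 and 109, rises of 0.45 (adjusted p = 7.22e-06) and 0.37 log2 (adjusted p = 7.79e-05). The oeWDR76 call was lost after the correction for GC content, at 0.09 (adjusted p = 0.179). With erastin the levels were 82.1 and 82.4 FPKM in siNS, 166 and 156 in siDCAF8, 97.1 and 115 in oeWDR76 and 109 and 106 in siDCAF8+siLSH. The erastin differences ran from -0.13 to -0.03 log2, with adjusted p of 0.242 to 0.746. KRT8 and KRT18 overlap by 996 bases on opposite strands, but the exons of the transcripts used share 0 bases. Both have many pseudogenes, 50 for KRT8 and 68 for KRT18 in GENCODE 29, and how the authors' counting treated reads shared with those is not stated in the labels.

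The ratio of KRT8 to KRT18 therefore varied across groups. It was 1.62 on average in siNS and 1.30 in siNS/Erastin, and 1.31 in siDCAF8, while the siDCAF8/Erastin libraries had ratios of 0.969 and 1.03. In the other genotypes the means differed little with erastin, at 1.59 and 1.62 in oeWDR76 and 1.76 and 1.73 in siDCAF8+siLSH. No test was run on the ratio.

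**Figure D3:**
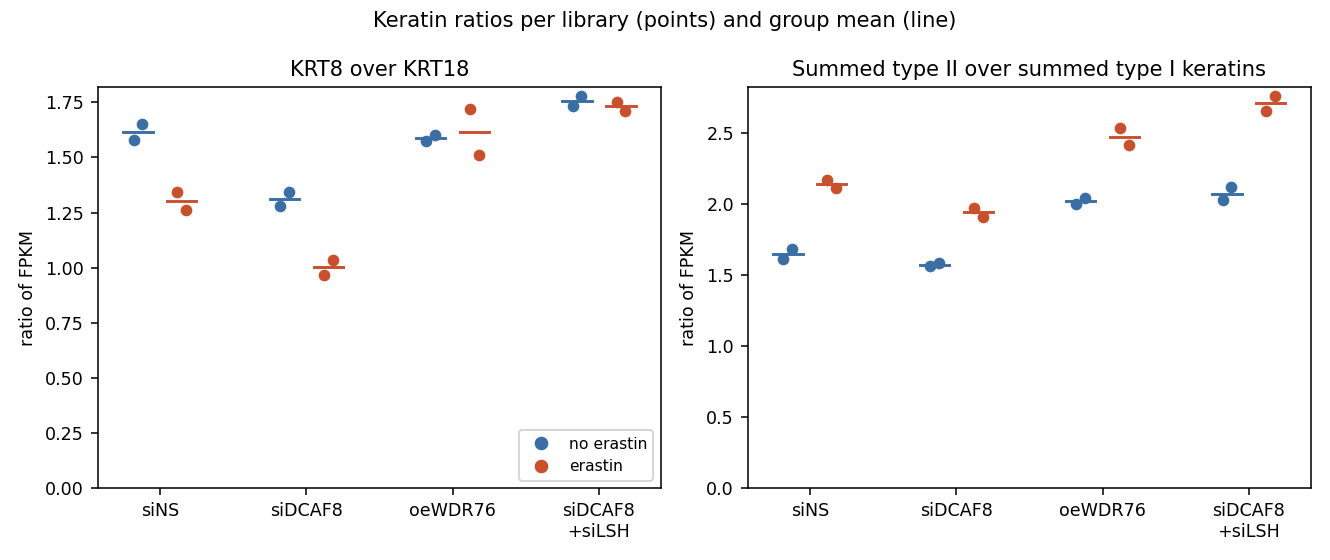
Left, KRT8 FPKM over KRT18 FPKM; right, the summed FPKM of all type II keratins over that of all type I keratins (y axes, from 0), by genotype (x axes); points are libraries without (blue) or with erastin (red), lines group means. The KRT8 to KRT18 ratio is lower with erastin in siNS and siDCAF8, and the summed ratio is higher with erastin in each genotype. The type II sum includes KRT81, which was chosen for being higher with erastin.

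Summed over all 39 keratins with values, type II RNA exceeded type I RNA in each library, by 1.56 to 2.76 times in FPKM. The mean ratio was 1.65 in siNS and 2.14 in siNS/Erastin, 1.57 and 1.94 in siDCAF8, 2.02 and 2.48 in oeWDR76, and 2.08 and 2.71 in siDCAF8+siLSH. KRT81 alone made up 20.5 and 21.0% of type II keratin FPKM in siNS and 44.4 and 45.8% in siNS/Erastin, so in the latter it was at the level of KRT8 (43.6 and 42.4%). Its mean share with erastin went from 14.9 to 41.85% in siDCAF8, 26.8 to 39.95% in oeWDR76 and 19.05 to 35.35% in siDCAF8+siLSH. The type II sum thus includes a gene chosen for being higher with erastin, and that choice raises the summed ratio. The ratio without KRT81 was not computed. KRT18 made up 66.8 to 92.1% of type I keratin FPKM.

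KRT7 (gene 3855, chr12:52233170-52248925), a ductal type II keratin, was low but higher with erastin in 3 of the 4 genotypes. It read 1.05 and 1.2 FPKM in siNS and 2.16 and 2.38 in siNS/Erastin, a rise of 0.62 log2 (1.54-fold, SE 0.11, adjusted p = 0.000432). The pseudocount of 1 shrinks this value, which was 0.95 with a pseudocount of 0.1. In siDCAF8 it rose from 1.27 and 1.37 to 2.66 and 2.85 FPKM (0.70 log2, adjusted p = 0.000165), and in siDCAF8+siLSH from 1.58 and 1.59 to 2.94 and 3.19 (0.65, adjusted p = 0.000681).

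The oeWDR76 libraries held KRT7 at 2.88 and 3.53 FPKM without erastin and 2.61 and 3.68 with it, overlapping (-0.03 log2, adjusted p = 0.946). Without erastin this was 1.97-fold above siNS (0.98 log2, adjusted p = 5.8e-07), and 0.58 log2 after the correction for GC content (adjusted p = 0.000189). The levels of KRT7 in oeWDR76 with and without erastin and in siDCAF8+siLSH/Erastin overlapped one another. In siDCAF8 without erastin KRT7 was not called against siNS (0.13 log2, adjusted p = 0.341). The siDCAF8+siLSH difference of 0.28 log2 from siNS (adjusted p = 0.0343) was 0.45 after the correction for GC content, and was not called without the filter on mean FPKM (adjusted p = 0.0674), with median-ratio scaling (adjusted p = 0.0517), or without siNS replicate 1 (0.165) or 2 (0.0519) or siDCAF8+siLSH replicate 1 (0.0889) or 2 (0.0975).

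KRT80 (gene 144501, chr12:52168996-52192000), an epithelial type II keratin, followed the genotypes and was not called with erastin in any of them. It read 2.68 and 2.89 FPKM in siNS, 15.8 and 16.1 in siDCAF8, 2.9 and 4.2 in oeWDR76 and 6.19 and 7.61 in siDCAF8+siLSH. The siDCAF8 libraries stood far above all others. KRT80 rose 4.49-fold in siDCAF8 against siNS (2.17 log2, SE 0.13, adjusted p = 1.13e-09) and 2.08-fold in siDCAF8+siLSH (1.06 log2, adjusted p = 2.44e-06). From siDCAF8 to siDCAF8+siLSH it fell by 1.11 log2 (adjusted p = 6e-06), a comparison in which DCAF8 RNA also differed (means of 12.02 and 15.84 FPKM).

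With erastin KRT80 read 3.11 and 3.05 FPKM in siNS, 18.9 and 14.3 in siDCAF8, 2.68 and 2.45 in oeWDR76 and 7.07 and 5.85 in siDCAF8+siLSH. The erastin differences were -0.34 to 0.11 log2, with adjusted p of 0.258 to 0.841. The lowest, in oeWDR76, was -0.55 (adjusted p = 0.122) without untreated oeWDR76 replicate 1 and -0.13 (adjusted p = 0.876) without replicate 2. In oeWDR76 against siNS the difference was 0.25 log2 (adjusted p = 0.096), 0.46 (adjusted p = 0.00856) without oeWDR76 replicate 1 and 0.04 (adjusted p = 0.795) without replicate 2.

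VIM (gene 7431, chr10:17228259-17237593, plus strand) was by far the most abundant of the 9 genes and ranked 13 to 52 among all genes of a library, with 0.285 to 0.455% of its summed FPKM. Without erastin it read 2044 and 2033 FPKM in siNS, 1952 and 1891 in siDCAF8, 2067 and 2062 in oeWDR76, and 1647 and 1549.7 in siDCAF8+siLSH. Only the siDCAF8+siLSH level differed from siNS by the test, with a fall of 0.35 log2 (1.28-fold, SE 0.05, adjusted p = 1.52e-05), which was 0.23 after quantile normalization. It was also lower than in siDCAF8, by 0.27 log2 (adjusted p = 0.000542). The oeWDR76 value of 0.02 log2 (adjusted p = 0.761) became -0.20 (adjusted p = 0.000875) after the correction for GC content.

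With erastin VIM was lower in siNS, at 1553 and 1479.9 FPKM, in siDCAF8, at 1551 and 1685, and in siDCAF8+siLSH, at 1273 and 1333, with no overlap with the untreated libraries. The differences were -0.43 log2 in siNS (1.34-fold, SE 0.05, adjusted p = 1.19e-05), -0.25 in siDCAF8 (adjusted p = 0.0013) and -0.29 in siDCAF8+siLSH (adjusted p = 0.000814). In oeWDR76 VIM read 1967 and 2060.35 FPKM with erastin, also without overlap, a difference of -0.04 log2 that was not called (adjusted p = 0.813).

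KRT19, KRT17 and NES were near 0. KRT19 lay between 0 and 0.55 FPKM, with 2 libraries at 0, KRT17 between 0.04 and 0.22, and NES between 0 and 0.26, with 1 library at 0. The highest NES values were in siNS (0.12 and 0.26) and siNS/Erastin (0.16 and 0.19), and the other 12 libraries held at most 0.07 FPKM. No fold is given at these levels.

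Erastin changed 3 of the 5 tested genes in siNS (KRT7 higher, VIM and KRT8 lower), where 37.5% of all 11260 tested genes were called. In siDCAF8 KRT7 was again called higher and VIM and KRT8 lower, with 40.9% of all genes, and in siDCAF8+siLSH KRT7 and VIM, with 20.2%. In oeWDR76 0 of 5 were called, with 1.45% of all genes (163 by limma, and 1527 at an unadjusted p under 0.05). Of the 5, KRT8 and KRT80 had an unadjusted p under 0.05 there (0.0427 and 0.0207). The 4 comparisons use separate libraries but share the estimate of each gene's spread, taken over all libraries. With 5 genes, these shares do not set the filament genes apart from the rest of the transcriptome.

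Without erastin, siDCAF8 against siNS gave 3 of 5 genes called (KRT80, KRT18 and KRT8, all higher), with 61.0% of all genes called and 31.0% called higher. Against the same siNS libraries, oeWDR76 gave 3 of 5 (KRT7, KRT18 and KRT8, all higher), with 73.6% of all genes called and 41.6% called higher. The siDCAF8+siLSH libraries gave 5 of 5, with VIM lower and the others higher, beside 66.8% of all genes. Against siDCAF8, siDCAF8+siLSH had 4 of 5 genes lower (KRT80, KRT18, KRT8 and VIM), with 48.2% of all genes called and 21.7% called lower. In that comparison KRT18 fell by 0.65 log2 (adjusted p = 1.14e-06) and KRT8 by 0.23 (adjusted p = 0.00162), the latter -0.12 after the correction for GC content.

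**Figure D4:**
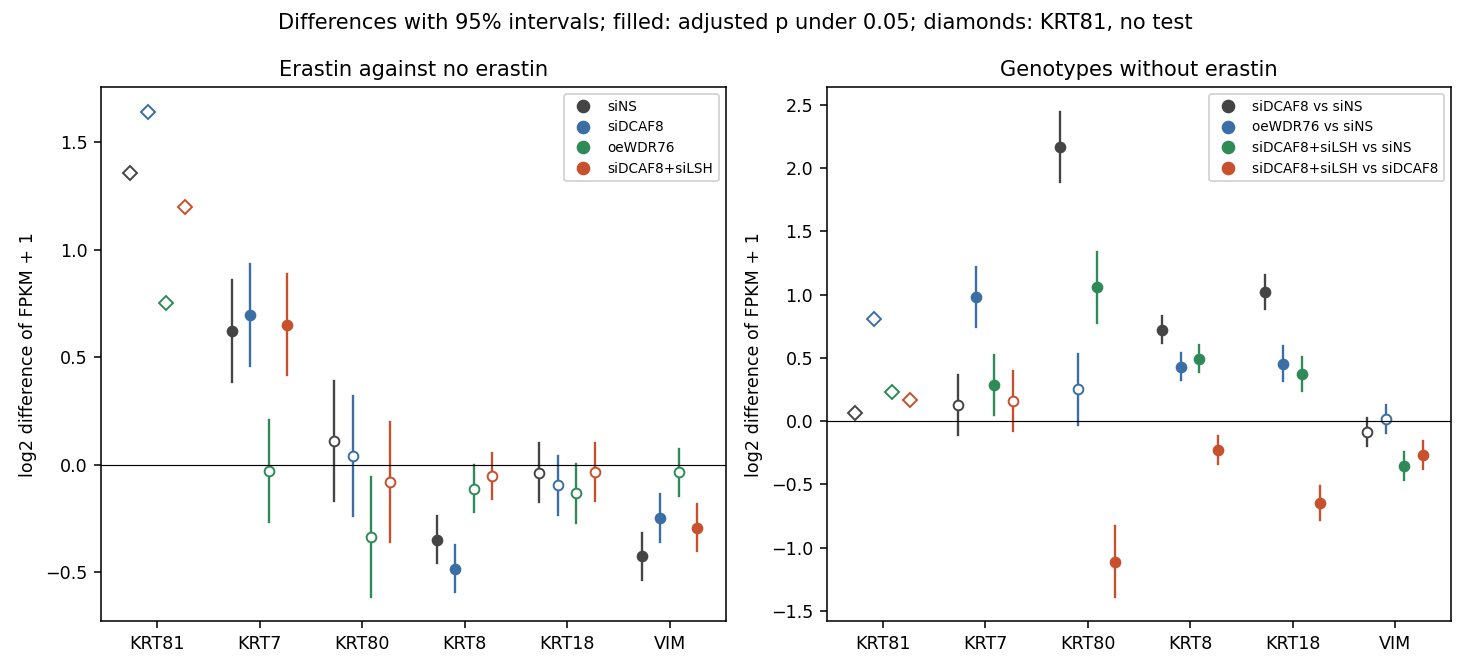
Differences in log2(FPKM + 1) (y axes) for 6 genes (x axes), left between libraries with and without erastin in each genotype, right between genotypes without erastin; bars are 95% intervals from limma, filled points have adjusted p under 0.05, and diamonds are KRT81, with no test. With erastin KRT7 is called above 0 and VIM below 0 in 3 genotypes, and KRT80, KRT18 and KRT8 lie above 0 in siDCAF8 against siNS.

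The size of the erastin response was compared between genotypes by testing the difference of differences. In siDCAF8 against siNS 0 of 5 genes differed by limma, with 20.8% of all genes called and, among the 5, only VIM at an unadjusted p under 0.05 (0.0272). That VIM difference was 0.18 log2 (adjusted p = 0.0956), and 0.22 (adjusted p = 0.0201) after the correction for GC content.

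In oeWDR76 against siNS 3 of 5 genes responded differently, with 14.1% of all genes called. VIM, which fell by 0.43 log2 in siNS and read -0.04 in oeWDR76, differed by 0.39 (SE 0.07, adjusted p = 0.00266). All 3 were also called after the correction for GC content, with VIM at 0.38 (adjusted p = 0.00105), KRT7 at -0.74 (adjusted p = 0.00476) and KRT8 at 0.18 (adjusted p = 0.035). KRT7, at 0.62 in siNS and -0.03 in oeWDR76, differed by -0.65 (SE 0.16, adjusted p = 0.0129), or -0.99 with a pseudocount of 0.1. This did not pass when siNS replicate 1 was left out (-0.60, adjusted p = 0.0508), nor without oeWDR76 replicate 2 (-0.54, adjusted p = 0.067) or oeWDR76/Erastin replicate 1 (-0.46, adjusted p = 0.066). KRT8 differed by 0.24 (SE 0.07, adjusted p = 0.0379), which did not pass with median-ratio scaling (0.20, adjusted p = 0.0958), nor without siNS replicate 2 (0.145), siNS/Erastin replicate 2 (0.126), oeWDR76 replicate 1 (0.151) or oeWDR76/Erastin replicate 1 (0.0589) or 2 (0.139), where the values in brackets are adjusted p.

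KRT8 was also the gene whose response differed in siDCAF8+siLSH. The difference was 0.30 log2 against siNS (SE 0.07, adjusted p = 0.00761), where 24.8% of all genes were called, and 0.43 against siDCAF8 (adjusted p = 0.00221), where 23.5% were called. After the correction for GC content these became 0.14 (adjusted p = 0.0759) and 0.22 (adjusted p = 0.0485), and the genes called against siDCAF8 went from 2642 to 268. The other 4 genes were not called in either comparison, with adjusted p of 0.198 to 0.979.

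Few other keratins were expressed. Of 55 keratin genes in the table, 39 had values, 29 stayed below 1 FPKM in each library and 9 were tested, 3 of type I and 6 of type II. From a list of 20 keratins of squamous and stressed epithelium, 12 had values and 3 were tested: KRT15, a type I keratin of basal and stem cells, KRT10, of differentiating epidermis, and KRT79, a type II keratin. The 6 squamous keratinocyte markers with values were mixed. KRT5 and KRT6A, defining keratins of squamous cells, reached at most 0.03 and 0.02 FPKM, and DSG3 at most 0.43. IVL lay at 0.32 to 2.17 FPKM, TP63 at 0.69 to 2.54 and KRT10 at 8.2 to 20.03.

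All 3 fell in siDCAF8 against siNS and in oeWDR76 against siNS, and 2 of 3 in siDCAF8+siLSH (3 of 3 with median-ratio scaling), opposite in direction to KRT8 and KRT18. Of all 11260 tested genes, 61.0, 73.6 and 66.8% were called in these comparisons, and 3368, 3606 and 3478 genes were called lower. KRT15 read 20.9 and 23.1 FPKM in siNS, 8.29 and 10.0 in siDCAF8, 8 and 7.46 in oeWDR76 and 2.97 and 2.85 in siDCAF8+siLSH, falls of 1.19 (adjusted p = 6.23e-08), 1.40 (adjusted p = 2.98e-09) and 2.56 log2 (adjusted p = 9.01e-12). KRT79 fell by 0.92, 0.64 and 0.97 log2 in the same comparisons. With erastin KRT15 fell in siNS (-0.78 log2, adjusted p = 2.69e-05), siDCAF8 (-0.69) and siDCAF8+siLSH (-0.46, adjusted p = 0.005). In oeWDR76 it read 5.58 and 6.27 FPKM with erastin (-0.34, adjusted p = 0.144).

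Beside VIM, 6 of 13 measured type III to VI filament genes were tested, among them the nuclear lamins. With erastin, 5 of 6 fell in siNS (median -0.41 log2, against -0.03 over all tested genes) and 3 of 6 in siDCAF8 (median -0.35, against -0.02), while 0 of 6 were called in oeWDR76. In siDCAF8+siLSH 1 rose and 2 fell (median 0.01, against 0.01; 0 and 3, with a median of -0.09, after the correction for GC content). The shares of all genes called were 37.5, 40.9, 1.45 and 20.2%. LMNB1, which encodes lamin B1, read 34.1 and 32.1 FPKM in siNS and 22.4 and 23.8 in siNS/Erastin, a fall of 0.50 log2 (adjusted p = 4.91e-06). LMNA, which encodes lamins A and C, fell by 0.35 in siNS and 0.44 in siDCAF8, and was at 0.06 (adjusted p = 0.707) in oeWDR76. Without erastin, 2 rose and 2 fell in siDCAF8 against siNS, 4 and 1 in oeWDR76 (3 and 2 after the correction for GC content) and 3 and 3 in siDCAF8+siLSH, where 61.0, 73.6 and 66.8% of all genes were called. PRPH and DES, the type III genes of peripherin and desmin, fell in siDCAF8 by 1.28 and 1.31 log2, from means of 4.92 and 2.98 FPKM in siNS, and in siDCAF8+siLSH by 1.61 and 1.76. In oeWDR76 DES fell by 1.08 and PRPH rose by 0.54. LMNB1 and LMNB2, which encode the B-type lamins, rose by 0.36 and 0.66 log2 in siDCAF8, 0.87 and 0.87 in oeWDR76 and 0.67 and 0.60 in siDCAF8+siLSH.

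Of 25 plakins, desmosome proteins and other filament linkers, 24 had values and 11 were tested. In siDCAF8 against siNS 7 rose and 3 fell (median 0.25 log2, against 0.01 over all tested genes), in oeWDR76 4 rose and 5 fell (median -0.06, against 0.07), and in siDCAF8+siLSH 5 rose and 4 fell (median 0.18, against 0.03). The shares of all genes called were 61.0, 73.6 and 66.8%. PLEC, which encodes plectin, a linker that binds vimentin and keratins, read 67.1 and 74.0 FPKM in siNS and 114 and 99.7 in siDCAF8, a rise of 0.59 log2 (adjusted p = 8.25e-06). With erastin PLEC fell by 0.53 log2 in siNS (adjusted p = 8.68e-05), to 48.7 and 48.1 FPKM, and was at 0.07 (adjusted p = 0.503) in siDCAF8. In siDCAF8+siLSH the erastin difference of PLEC had the opposite sign, a rise of 0.29 (adjusted p = 0.0186) that was not called after the correction for GC content. DST and MACF1, which encode the plakins dystonin and MACF1, fell by 1.34 and 1.36 log2 in oeWDR76 against siNS (adjusted p = 1.41e-11 and 1.56e-11). With erastin 2 of 11 linkers rose and 3 fell in siNS, where 37.5% of all genes were called, 2 rose and 1 fell in siDCAF8, with 40.9%, and 0 of 11 were called in oeWDR76, with 1.45%. In siDCAF8+siLSH 2 rose and 0 fell (0 and 0 after the correction for GC content), with 20.2%.

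Over the 16 libraries, the tested genes whose log2(FPKM + 1) was most like that of KRT81 were KRT86 (Pearson r = 0.945), PEA15 (0.887), LTBP3 (0.879), PTGES (0.872) and SNAI2 (0.866). KRT7 came next among the filament genes, at rank 9 (0.847), while KRT18, KRT80 and KRT8 had r of 0.005, -0.04 and -0.29. The 16 points are 8 groups of 2 with the same treated libraries, so these values describe a shared order of groups. PTGES, a prostaglandin E synthase, had means of 0.615 FPKM in siNS and 3.04 in siNS/Erastin. SNAI2, the transcriptional repressor Slug, read 23.8 and 19.4 FPKM in siNS and 36.6 and 34.9 in siNS/Erastin. Like KRT81 it was higher than in siNS in oeWDR76 without erastin, at 34.8 and 30.6. In siDCAF8 without erastin SNAI2 was below siNS, at 15.65 and 15.38, while KRT81 overlapped siNS.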

How the data were processed

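RNA was measured in 16 libraries of HT-1080 cells, 8 groups of 2, per the labels. The authors deposited 1 table of FPKM, with 2 decimals, and the submitters' processing notes name StringTie and GRCh38. Aligner, versions, annotation and strand setting were not given in those notes. There are 24107 entries, 17552 with values and 6555 empty. It gives no counts, so the depth is unknown, and the precision known here is the agreement within groups (Pearson's r 0.996 to 0.997 between libraries).

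Here log2(FPKM + 1) of the 11260 genes that averaged 1 FPKM or more was modelled in R 4.3.3 with limma 3.58.1 (8 group means, eBayes with trend, 8 residual and 8.57 prior degrees of freedom) and checked on simulated data. The 12 contrasts were tested two-sided, with Benjamini-Hochberg adjustment over all tested genes within each and calls at adjusted p under 0.05. Folds are on the FPKM + 1 scale. Alternatives were a pseudocount of 0.1, no filter, a filter at 5 FPKM, median-ratio scaling, quantile normalization, a replicate block, only the groups compared, a correction for GC content and transcript length (11086 genes), and each library left out.

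The members, lists and alternatives were chosen with earlier results of these data known. Named genes are all members, KRT83 and KRT86, up to 3 genes per list and comparison with the lowest adjusted p, and the 5 tested genes most like KRT81; KRT85, the other markers and, for a few comparisons, further list genes were named after their values were seen. Coding sequences came from GENCODE 29 transcripts (GRCh38) and were aligned with Biopython 1.88. Python 3.11.15, pandas 2.3.3, numpy 2.4.6 and matplotlib 3.10.9 made the tables and plots.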

Additional observations from a re-analysis of the deposited data

Results flagged for a closer look

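The response to erastin differed between genotypes, by a test of the difference itself (limma, Benjamini-Hochberg), for KRT7 (-0.65 log2, adjusted p = 0.0129), VIM (0.39, adjusted p = 0.00266) and KRT8 (0.24, adjusted p = 0.0379) in oeWDR76 against siNS. For KRT8 it also differed in siDCAF8+siLSH against siNS (0.30, adjusted p = 0.00761) and against siDCAF8 (0.43, adjusted p = 0.00221). In each case the treated and untreated libraries of siNS (and, for KRT8, of siDCAF8) did not overlap. Treated and untreated libraries also did not overlap for VIM and KRT8 in oeWDR76 and KRT8 in siDCAF8+siLSH, where the erastin difference was not called. For VIM in oeWDR76 the nearest libraries read 2060.35 FPKM with erastin and 2062.15 without. How many of all genes showed no overlap was not counted, so here and above the absence of overlap is only a description. The comparisons against siNS share the siNS libraries. The untreated oeWDR76 libraries differed from siNS in their relation to GC content, as given with the results. The correction for GC content left VIM at 0.38, KRT7 at -0.74 and KRT8 at 0.18 in oeWDR76 against siNS, all called. In siDCAF8+siLSH it left KRT8 at 0.14 against siNS (adjusted p = 0.0759, not called) and 0.22 against siDCAF8 (adjusted p = 0.0485). The KRT7 and KRT8 calls in oeWDR76 were lost when some single libraries were left out, and that of KRT8 also with median-ratio scaling.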

How the results depend on the processing

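Of 28 called results for the 5 tested filament genes, 23 kept their direction and call under each alternative that tested the gene, and 0 reversed. KRT7 was not tested with the filter at 5 FPKM. The other 5 are KRT18 in oeWDR76, KRT7 in siDCAF8+siLSH, and the response differences of KRT7 and KRT8 in oeWDR76 and of KRT8 in siDCAF8+siLSH against siNS, whose values stand with the results. The cause was not tested.

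Uncalled values that changed sign were, with the correction for GC content, KRT18 with erastin in siNS (0.05 log2) and siDCAF8 (0.042) and VIM in oeWDR76 against siNS (-0.20, and -0.054 with median-ratio scaling). With quantile normalization they were KRT7 in oeWDR76 (0.004) and KRT18 in siDCAF8+siLSH (0.011) with erastin. Leaving out 1 library turned KRT80 with erastin in siDCAF8 to -0.15 (siDCAF8/Erastin replicate 1; range -0.149 to 0.225), KRT80 in siDCAF8+siLSH to 0.048 (siDCAF8+siLSH replicate 2; range -0.212 to 0.048) and 0.04 (siDCAF8+siLSH/Erastin replicate 2), and KRT7 in oeWDR76 to 0.08 (oeWDR76 replicate 2) and 0.16 (oeWDR76/Erastin replicate 1; range -0.216 to 0.159). Uncalled values called under the GC correction were KRT8 with erastin in siDCAF8+siLSH (-0.13, adjusted p = 0.0218), KRT7 in siDCAF8+siLSH against siDCAF8 (0.31, adjusted p = 0.0304), VIM in oeWDR76 against siNS (-0.20, adjusted p = 0.000875) and VIM in the response of siDCAF8 against siNS (0.22, adjusted p = 0.0201).

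The filament genes called with erastin in siDCAF8+siLSH went from 2 to 1 with the filter at 5 FPKM, which drops KRT7 from every comparison. With the GC correction those called went from 0 to 1 in the response of siDCAF8 against siNS and from 1 to 0 in that of siDCAF8+siLSH against siNS. In the response of oeWDR76 against siNS, 1 to 3 were called without 1 library, the 1 being without oeWDR76/Erastin replicate 1.

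Over all genes, those called with erastin in oeWDR76 went from 163 to 84 with no filter, 270 with only the groups compared and 27 to 39 without 1 library. The response of siDCAF8+siLSH against siDCAF8 went from 2642 genes to 1755, 1696 and, with the GC correction, 268. Without 1 library, called genes numbered 2796 to 3277 for erastin in siNS (2796 without siNS replicate 2), 3021 to 3978 in siDCAF8 (3021 without siDCAF8 replicate 1) and 1247 to 2098 in siDCAF8+siLSH (1247 without siDCAF8+siLSH replicate 2). For responses against siNS they numbered 1315 to 2330 in siDCAF8, 906 to 1313 in oeWDR76 and 1761 to 2732 in siDCAF8+siLSH, and 1008 to 3003 for siDCAF8+siLSH against siDCAF8, the lowest without siNS/Erastin replicate 1, oeWDR76 replicate 2, siNS replicate 2 and siDCAF8 replicate 1. Genes called higher with erastin in siNS made up 40.4% of calls, and 51.8% with quantile normalization.

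Replicate numbers are shared by all groups, but nothing in the labels pairs the libraries, and deviations of same-numbered libraries correlated at -0.21 to 0.39. With the replicate number as a block, 0 calls of the tested filament genes changed. Counts over all genes stayed within 1.5 times, for example 4286 against 4223 for erastin in siNS, where 3 of the 5 filament genes were called either way. With FPKM alone, what depth could resolve for KRT7, KRT19, KRT17 and NES is unknown.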

Other observations

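Transcription factors that act on epithelial and filament genes also differed between the groups. Of 13 AP-1 subunits and partners, 10 were tested. FOSL1, an AP-1 subunit of invasive cells, had means of 82.2 FPKM in siNS, 138 in siDCAF8, 303 in oeWDR76 and 82.2 in siDCAF8+siLSH without erastin, rises of 0.74 log2 in siDCAF8 (limma adjusted p = 1e-08) and 1.87 in oeWDR76 (adjusted p = 3.17e-14). ATF3, a stress-induced partner, rose by 1.58 log2 in oeWDR76 and fell by 0.57 in siDCAF8 and 1.75 in siDCAF8+siLSH. The list held 4 genes higher and 6 lower in siDCAF8, 5 and 3 in oeWDR76, and 0 and 6 in siDCAF8+siLSH, with medians of -0.25, 0.34 (-0.04 after the correction for GC content) and -0.36 log2, where 61.0, 73.6 and 66.8% of all genes were called. With erastin MAFF, a small Maf protein, rose in siNS (0.61 log2, adjusted p = 2.52e-04), siDCAF8 (0.49) and siDCAF8+siLSH (0.50).

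Of 21 epithelial-mesenchymal regulators, 9 were tested. SNAI2 rose with erastin in siNS (0.71 log2, adjusted p = 1.35e-05), siDCAF8 (1.12), oeWDR76 (0.42, adjusted p = 0.0247) and siDCAF8+siLSH (0.44). ZEB1 and ZEB2, which repress epithelial genes, fell by 1.01 and 0.93 log2 in oeWDR76 against siNS (adjusted p = 3.64e-09 and 4.77e-08), and TWIST2 rose by 0.64. The list held 5 genes higher and 3 lower in that comparison, where 73.6% of all genes were called.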
